A study of Mus musculus with 59 samples.

Results

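The genes described here are the 39 Hox genes of the mouse, found as every entry whose alias list held Hoxa, Hoxb, Hoxc or Hoxd followed by a number from 1 to 13. They made up 39 of 27262 entries in the co-culture table and 40 of 36814 entries in the spinal cord table, where Hoxa3 was listed as 2 gene models of 2085 and 6390 bases. Their levels were compared between spinal cord, cultured neurons and cultured glia, and within each of these by genotype and by age or culture day.

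Hox genes encode homeodomain transcription factors and lie in clusters on separate chromosomes: HoxA on mouse chromosome 6, HoxB on 11, HoxC on 15 and HoxD on 2. Genes with the same number in different clusters form a paralogue group. In the embryo, low-numbered groups are expressed from the hindbrain backwards and higher-numbered groups start progressively further towards the tail, so that the set of groups a neural cell expresses records its position along the body axis. In the spinal cord this code assigns motor neurons to columns and pools that innervate limb or trunk muscle, and the forebrain and midbrain express no Hox genes. Retinoic acid induces the low-numbered groups, Cdx factors and the secreted factor Gdf11 the more posterior ones, Polycomb complexes silence the clusters where they are unused, and Pbx and Meis proteins are cofactors that bind DNA together with Hox proteins.

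The study addressed how astrocytes and motor neurons affect each other in amyotrophic lateral sclerosis, with SOD1_G93A mice as the model. These mice carry a disease-causing variant of SOD1, an enzyme that removes superoxide. What drives the transgene was not given in the sources used here. Spinal cord RNA was read in 16 libraries, with 1 female and 1 male SOD1_G93A mutant and 1 female and 1 male wild-type mouse at each of 4, 8, 12 and 17 weeks of age. The cultures were of the sandwich type, in which glia and neurons are grown as separate layers and the RNA of 1 partner is read, at 3, 7 and 14 days. Glia of mutant or wild-type genotype with mutant or wild-type neurons gave 23 glial libraries, with 7 at day 3 and 8 each at days 7 and 14, and the neuronal side gave 20, with 6 at day 3 and 7 each at days 7 and 14. Most groups had 2 replicates. The 5 with a single library were the wild-type glia kept with mutant neurons and the wild-type neurons kept with wild-type glia, both at day 3, and the mutant neurons on wild-type glia, on all 3 days. The part of the cord taken, the source of the cultured cells and whether replicates were separate cultures were not given in the sources used here, so that p-values measure the spread between these samples, which may be technical.

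Reads on genes came to 9.71 to 49.1 M in the cord libraries, 2.80 to 19.7 M in those of glia and 5.84 to 27.8 M in those of neurons. Values are reads scaled by gene length and library (RPKM), rescaled to a common level within each table, so that levels can be compared between genes and, within a table, between libraries. They are called rescaled values below. In the libraries labelled as neurons 8 of 8 neuronal and 7 of 7 motor neuron markers were higher than in glia, and 8 of 8 astrocyte and 8 of 8 microglial markers were lower. The day 3 replicate 1 libraries of both cell types stood apart, since the deposited values needed scaling factors of 1.46 to 1.70 in neurons and 1.53 to 2.23 in glia, against 0.812 to 0.980 and 0.869 to 0.945 in the other libraries. The 4 neuronal libraries among them also held pluripotency markers (Pou5f1, Nanog, Zfp42, Dppa5a and Tdgf1) at a summed 92.7 to 162, against 4.33 to 4.40 in the day 3 replicate 2 libraries. Results that rest on these libraries are given with and without them.

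The 250 bases before the annotated start were available for 24 transcripts of 22 members in the RefSeq table for GRCm38.p6. They are shown for Hoxb8, which was among the highest members in both cord and neurons, for Hoxd4, which shared a Cdx motif with it, and for Hoxa9, which was high in cord and near 0 in most neuronal libraries. Each is printed 5′ to 3′ on the strand of its gene, with matches to the searched motifs in capitals.
Hoxb8, chr11:96281655-96281904, plus strand: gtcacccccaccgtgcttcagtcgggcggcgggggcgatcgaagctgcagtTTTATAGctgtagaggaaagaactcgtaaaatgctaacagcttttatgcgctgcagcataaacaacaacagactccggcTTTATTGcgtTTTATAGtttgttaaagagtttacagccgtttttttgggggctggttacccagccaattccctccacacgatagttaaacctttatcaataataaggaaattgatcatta
Hoxd4, chr2:74721728-74721977, plus strand: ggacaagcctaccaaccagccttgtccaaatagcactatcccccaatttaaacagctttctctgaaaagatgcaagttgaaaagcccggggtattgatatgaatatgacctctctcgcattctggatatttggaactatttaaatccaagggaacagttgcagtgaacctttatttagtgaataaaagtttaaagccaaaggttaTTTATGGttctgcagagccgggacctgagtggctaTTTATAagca
Hoxa9, chr6:52227371-52227620, minus strand: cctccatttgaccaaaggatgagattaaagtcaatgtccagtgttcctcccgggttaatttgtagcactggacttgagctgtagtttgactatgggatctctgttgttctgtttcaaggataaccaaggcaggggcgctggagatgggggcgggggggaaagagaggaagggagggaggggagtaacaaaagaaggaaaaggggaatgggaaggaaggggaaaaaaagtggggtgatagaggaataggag
Motifs were searched on both strands. TTTATNG, a form of the site bound by Cdx factors, was found in the windows of 2 members. Hoxb8 held 3 matches, 199, 120 and 110 bases before its start, and Hoxd4 held 1, 45 bases before its start. Of all 32851 windows, 9.81% held this motif. TATAAA was found for Hoxa10, Hoxb8, Hoxd13 and Hoxd4 and in 12.4% of all windows. On the opposite strand it reads TTTATA, which overlaps TTTATNG, so that 2 of the Hoxb8 capital stretches match both. TGATTNAT, a joint Pbx and Hox site, was found for Hoxa2 and Hoxd11 and in 2.82% of all windows. No member window held a retinoic acid direct repeat with 5 or 2 bases between its arms, which occurred in 0.0122% and 0.00913% of all windows. The median GC content was 58.6% in the member windows and 52.4% in all windows.

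Spinal cord expressed Hox genes of nearly the whole series. Groups 8 and 9 took a median 44.7% of its summed Hox value and groups 4 to 7 a median 39.5%. The cultured neurons expressed a more anterior set, with their weight on groups 4 to 7. Glia held little Hox RNA. The summed rescaled value over all members was 256 to 339 in the 16 cord libraries (median 279), 288 to 920 in the 20 neuronal libraries (median 442) and 1.00 to 16.5 in the 23 glial libraries (median 3.85). At a rescaled value of 1 or more, cord libraries held 27 to 31 members, neuronal libraries 19 to 28 and glial libraries 0 to 4. The ranges of neurons and glia did not overlap in either measure. In such bulk RNA, fewer cells that express a gene and less RNA per cell cannot be told apart. Cord and culture values were normalized separately, so that their levels are set side by side and were not tested against each other.

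**Figure D1:**
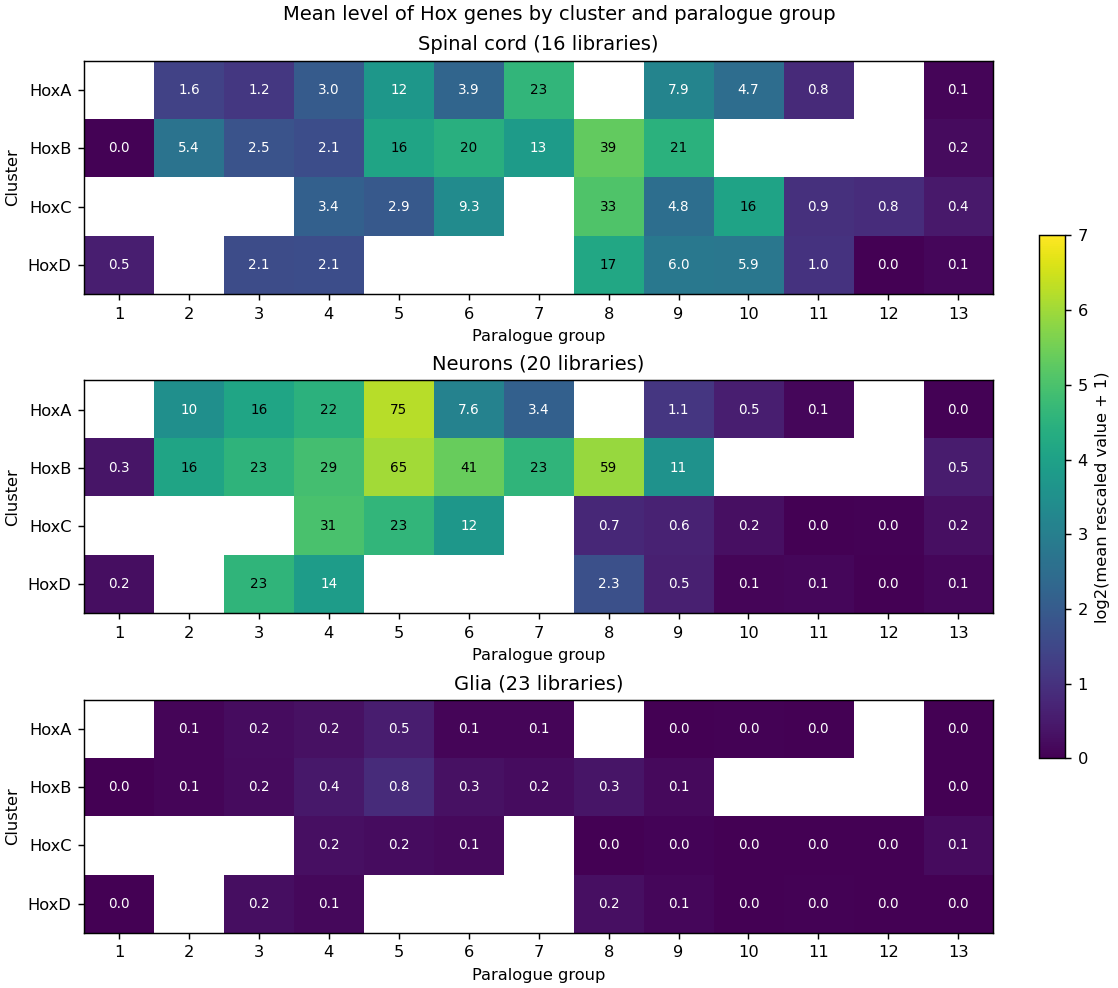
Mean rescaled value of the Hox members shown, by cluster (rows) and paralogue group (columns) in spinal cord (16 libraries), cultured neurons (20) and cultured glia (23); colour is log2(mean + 1), the printed figure is the mean, and white cells hold no gene or one that is not shown. The highest mean is 38.7 in cord (Hoxb8), 74.8 in neurons (Hoxa5) and 0.814 in glia (Hoxb5), and Hoxc8 stands at 32.7 in cord and 0.723 in neurons.

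Paralogue group 8 took the largest share of the summed Hox value in cord, with a median of 31.1%, and group 5 the largest in neurons, with 30.9%. Groups 1 to 3 made up 4.10 to 6.04% of the sum in cord and 14.1 to 23.9% in neurons. Groups 4 to 7 made up 33.5 to 42.7% in cord and 56.0 to 78.0% in neurons. The order was the opposite for the posterior groups. Groups 8 and 9 made up 41.1 to 49.4% of the cord sum and 4.77 to 28.5% of the neuronal sum, and groups 10 to 13 made up 6.95 to 12.9% and 0.0124 to 1.36%. The mean paralogue number, weighted by level, was 7.11 to 7.48 in cord and 4.65 to 5.85 in neurons. No cord library overlapped with a neuronal library in any of these 5 measures. The 2 tables scaled some members by different gene lengths, which shifts such shares. Hoxb7 had 3778 bases in cord and 1269 in culture, Hoxd3 had 5792 and 3880, and Hoxc8 had 2369 and 1469. The culture lengths were recovered from the values. The part of these lengths in the shares was not tested.

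**Figure D2:**
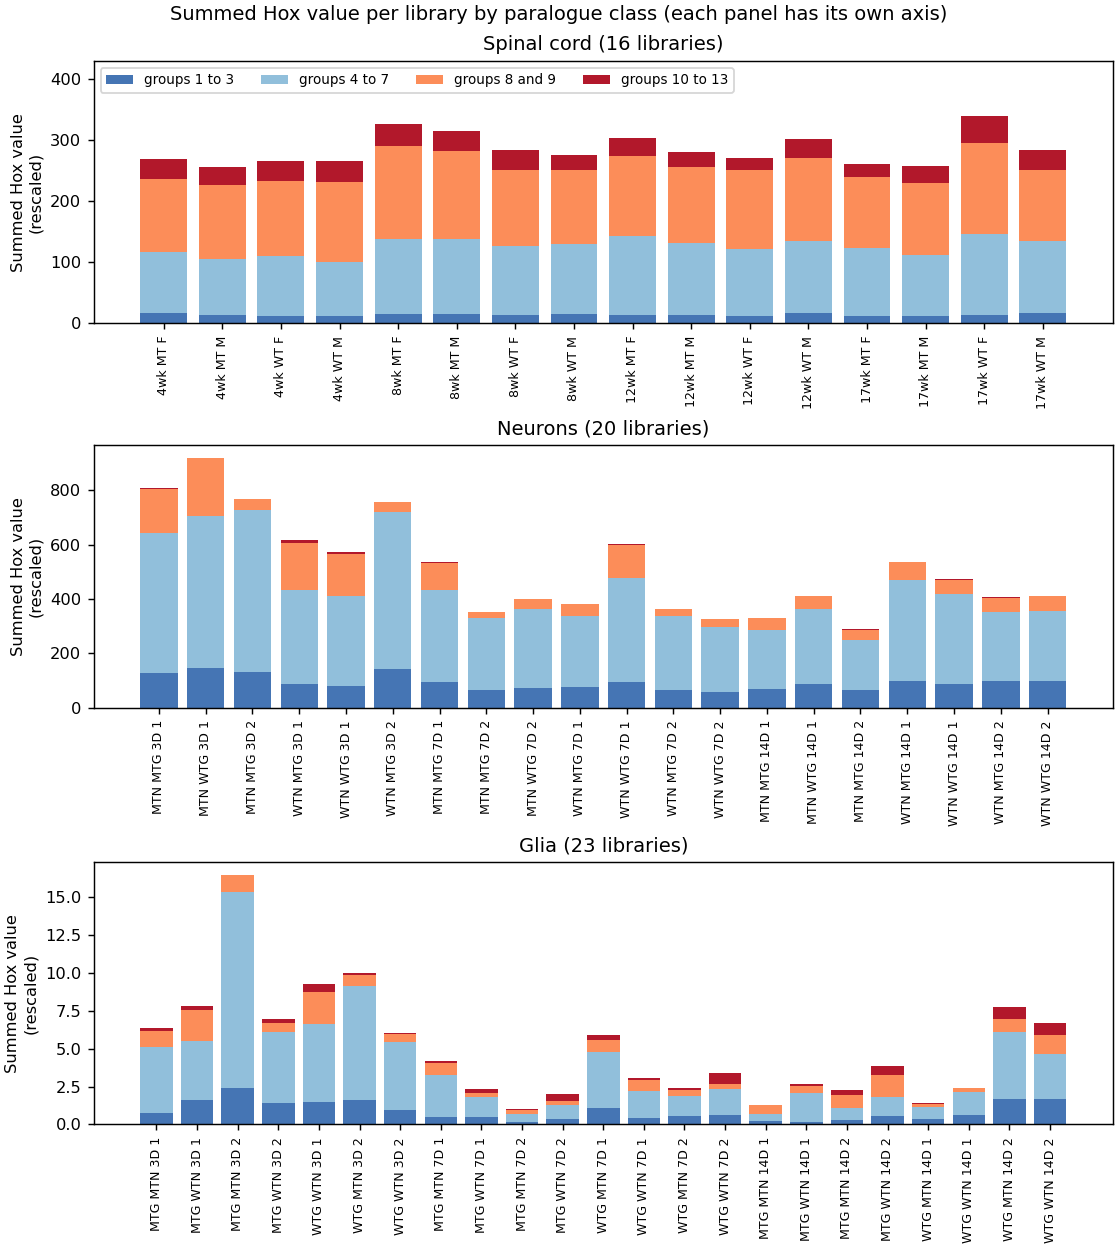
Summed rescaled value of the Hox members in each library, stacked by paralogue class (groups 1 to 3, 4 to 7, 8 and 9, 10 to 13), in panels for spinal cord, neurons and glia that have axes of their own. Groups 8 and 9 fill 41.1 to 49.4% of the cord bars, groups 4 to 7 fill 56.0 to 78.0% of the neuronal bars, and the tallest glial bar reaches 16.5.

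The posterior end of expression differed between the clusters. In neurons the highest group at a value of 1 or more was 9 in the median library for HoxB, 8 for HoxD, 7 for HoxA and 6 for HoxC. In cord it was 9 for HoxB in every library, 10 or 11 for HoxA and HoxD, and 10 to 12 for HoxC. Hoxc8, a gene of brachial and thoracic cord, had a mean of 32.7 in cord and 0.723 in neurons. Hoxb8, its HoxB paralogue, had means of 38.7 and 59.5. Among the most posterior members, Hoxd12 was listed at 0 in all 16 cord libraries, and Hoxa11 was listed at 0 in all 23 glial libraries.

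Within cord, Hoxb8, at chr11:96143219-96146640 on the plus strand in mm9, had the highest mean, with values from 30.2 through a median of 37.4 to 49.8. Hoxa7, the highest member of groups 4 to 7, ranged from 19.2 through 23.1 to 27.4, and Hoxb2, the highest of groups 1 to 3, from 4.13 through 5.47 to 6.45. Hoxc10, a regulator of lumbar motor neurons and the highest of groups 10 to 13, ranged from 10.3 through 16.4 to 25.5. Hoxc8 had the second highest mean, 32.7, followed by Hoxa7 at 23.4, Hoxb9 at 21.1 and Hoxb6 at 20.4. Of the 40 cord entries 11 overlapped another Hox entry (9 pairs), among them Hoxa3 with Hoxa4, Hoxa5 and Hoxa6, Hoxb7 with Hoxb8, Hoxd3 with Hoxd4 and Hoxd10 with Hoxd11, and how the counting split such reads was not given in the sources used here.

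Within neurons, Hoxa5, which acts in cervical and brachial cord, had the highest mean, with values from 43.7 through a median of 68.8 to 143. Hoxb8 ranged from 16.3 through 42.7 to 174, and Hoxd3, the highest of groups 1 to 3, from 6.36 through 20.4 to 64.9. Hoxa10, the highest of groups 10 to 13, ranged from 0.0157 through 0.139 to 3.77 and reached 1 in 2 libraries. The next means after Hoxa5 were those of Hoxb5, Hoxb8, Hoxb6, Hoxc4 and Hoxb4, at 64.7, 59.5, 40.7, 30.5 and 29.0.

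All 28 members that passed the filter on low values were higher in neurons than in glia, at an adjusted p under 0.05 averaged over days, where 39.8% of all genes tested were called higher. The other 11 members were below the filter, a value of 1 in at least 2 of the 43 libraries: Hoxa11, Hoxa13, Hoxc10 to Hoxc13, Hoxd1 and Hoxd10 to Hoxd13. Of the 28, 3 also passed in the glial libraries taken alone, so that for the rest the filter itself was met by neurons, and the count is a description. In the log2(value + 1) unit used for all differences, which understates changes of low values, the median was 3.45, against 0.01 over all 15559 genes tested. The rescaled values of 21 members did not overlap between the 20 neuronal and the 23 glial libraries. The share of all genes that did so is not given here, so that this count too is a description.

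Hoxa5 ranged from 43.7 to 143 in neurons and had a mean of 0.475 in glia, where 2 libraries reached 1. Its difference was 5.62 (SE 0.11, adjusted p = 6.2e-22). Hoxb8 had a difference of 5.35 (SE 0.21), with a highest glial value of 1.25 against a lowest neuronal value of 16.3. Hoxb6, Hoxb5 and Hoxc4 followed with differences of 5.02, 4.90 and 4.59. On reads recovered from the values, where no 1 is added, the log2 differences of Hoxb8, Hoxb6 and Hoxc4 were larger, at 8.13, 7.92 and 7.29. The smallest of the 28 differences, 0.35, was that of Hoxb1, a hindbrain gene that reached 1 only in the 4 neuronal libraries of day 3 replicate 1, at 1.79, 1.32, 1.05 and 1.23. Without the day 3 replicate 1 libraries 22 members were tested and 21 were higher in neurons. The share of all genes in that refit is not given here.

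The difference was present at the first and at the last day. At day 3 the same 28 members were higher in neurons, where 37.0% of all genes were, with a median of 4.06 and the largest difference in Hoxb8, at 5.78, ahead of Hoxa5 (5.34), Hoxb5 (5.02), Hoxc4 (4.90) and Hoxc5 (4.82). At day 14, 21 were higher, where 22.1% of all genes were, with a median of 3.40 and the largest difference in Hoxa5, at 5.97 (adjusted p = 4.3e-17). Hoxb6 (5.42), Hoxb8 (5.32), Hoxb3 (4.31) and Hoxc4 (4.25) came next, and on recovered reads Hoxb6, Hoxb8, Hoxb3 and Hoxc4 came to 8.90, 8.92, 8.13 and 7.49. The 7 members not called at day 14 were Hoxa9, Hoxa10, Hoxb1, Hoxb13, Hoxc8, Hoxc9 and Hoxd9. The change in the difference between the days, tested itself, passed for 18 of the 28, where 53.7% of all genes passed in either direction. Most libraries of the same day and number varied together, which this test does not model, so that its p-values may be too small. Hoxa9, Hoxa10, Hoxb1, Hoxb13, Hoxc9 and Hoxd9 reached 1 only in neurons of day 3 replicate 1. They met the filter only where they were high, so that their narrowing is a description. The difference narrowed for 16, these members included. It widened for Hoxb6 by 0.69 (adjusted p = 0.0158) and for Hoxa2 by 0.44 (adjusted p = 0.0301). Without the day 3 replicate 1 libraries it narrowed for 7 of 22 and widened for none. The 7 were Hoxa4, Hoxb4, Hoxb5, Hoxc4, Hoxc5, Hoxd3 and Hoxd4, all of groups 3 to 5. Hoxa3, Hoxb3 and Hoxa5 of the same groups did not pass. The share of all genes in this refit is not given here, so that the count is a description.

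The genes that work with or on the Hox clusters were described from fixed lists. Among 9 Hox cofactors, 7 were higher in neurons than in glia and none lower, with a list median of 0.66. Meis1, a homeodomain cofactor of Hox proteins, had means of 29.0 in neurons and 2.39 in glia, a difference of 3.11. Pbx3 and Meis2 followed at 2.43 and 1.21. Of 9 motor column genes under Hox control, 8 were higher in neurons, with a median of 1.56, led by Mnx1, a defining motor neuron factor, with means of 61.4 and 0.647. Ret, a receptor for glial-derived growth factors, and Pou3f1, which marks motor neuron subsets, had differences of 4.36 and 3.79.

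Genes of the retinoic acid pathway went both ways, with 6 of 17 higher in neurons and 9 lower, where 38.6% of all genes were lower, and a list median of -0.46. Aldh1a2, which makes retinoic acid, had means of 0.837 in neurons and 51.4 in glia, a difference of -4.64, and Stra6, a retinol transporter, and Aldh1a1 were also lower in neurons, by -3.05 and -3.01. Of 9 forebrain and midbrain genes tested, 7 were lower in neurons and 2 higher, with a median of -1.92. Six3 and Lhx2, transcription factors of the developing forebrain, differed by -2.73 and -2.56. Of 18 tested entries for 17 genes that act on Hox chromatin, 12 were higher in neurons and 2 lower, with a median of 0.36, led by Jarid2 (1.25), Kdm6b (1.14) and Phc1 (1.14). Of 10 Cdx and posterior inducer genes 2 were tested, with Cdx1 higher in neurons by 0.34 and Gdf11 lower by -1.22.

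From day 3 to day 14, 18 of 28 Hox members tested in neurons fell. Without the 4 day 3 replicate 1 libraries 7 of 22 fell and 1 rose, and without 1 of them, wild-type neurons on wild-type glia, 12 were called. The shares of all genes in these refits are not given here. The summed Hox value ranged from 572 through a median of 763 to 920 at day 3, from 327 through 383 to 602 at day 7 and from 288 through 411 to 535 at day 14. The ranges of days 3 and 14 did not overlap. None of the 28 was higher at day 14, 33.5% of all genes were lower, and the median difference was -0.90, against -0.04 over all genes. By class, 2 of 7 members of groups 1 to 3, 9 of 12 of groups 4 to 7, 5 of 7 of groups 8 and 9 and 2 of 2 of groups 10 to 13 were lower. These counts hold 6 members, Hoxa9, Hoxa10, Hoxb1, Hoxb13, Hoxc9 and Hoxd9, that reached 1 in day 3 replicate 1 libraries and in no other neuronal library. They met the filter only where they were high, so that their calls are a description. Neuronal libraries of the same day and number varied together in 6 of 7 pairs. This comparison of days does not model that, so that its p-values may be too small.

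Hoxb5, at chr11:96164826-96167436 on the plus strand in mm9, ranged from 32.9 through 144 to 201 at day 3, from 36.3 through 51.1 to 81.8 at day 7 and from 18.2 through 20.3 to 27.2 at day 14. All day 14 libraries lay below all day 3 libraries, and the difference was -2.01 (SE 0.31, adjusted p = 0.000166). Hoxc5 ranged from 24.5 through 48.8 to 51.8 at day 3 and from 6.30 through 10.7 to 21.4 at day 14, again without overlap, and differed by -1.75 (SE 0.22, adjusted p = 3.4e-05). Hoxd3 ranged from 21.1 through 31.3 to 64.9 at day 3 and from 6.36 through 12.2 to 22.6 at day 14, a difference of -1.32 (SE 0.25, adjusted p = 0.000695). Its day 14 libraries overlapped the low end of day 3.

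Hoxc6, a gene of brachial motor neurons, ranged from 7.95 through 30.5 to 42.2 at day 3 and from 1.58 through 5.60 to 8.74 at day 14. Its difference was the largest among the members, at -2.18 (SE 0.44, adjusted p = 0.00102). Hoxb9 ranged from 4.70 through 29.1 to 36.6 and from 3.63 through 5.14 to 6.42, and differed by -1.79 (SE 0.48, adjusted p = 0.00686). For both genes the high values of day 3 were those of replicate 1. Without the day 3 replicate 1 libraries Hoxc6 differed by -0.87 (adjusted p = 0.161) and Hoxb9 by 0.07 (adjusted p = 0.885), with the opposite sign, and neither passed.

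Members that did not pass included Hoxa5, which ranged from 60.4 through 64.5 to 87.8 at day 3 and from 45.3 through 90.9 to 143 at day 14 (difference 0.39, adjusted p = 0.133). Hoxb6 ranged from 21.5 through 50.1 to 67.7 and from 33.0 through 45.2 to 57.8, a difference of 0.13. Hoxb8 had medians of 106, 30.0 and 43.1 at days 3, 7 and 14, and its difference of -1.08 had an adjusted p of 0.0878. Hoxa2 differed by 0.37.

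**Figure D3:**
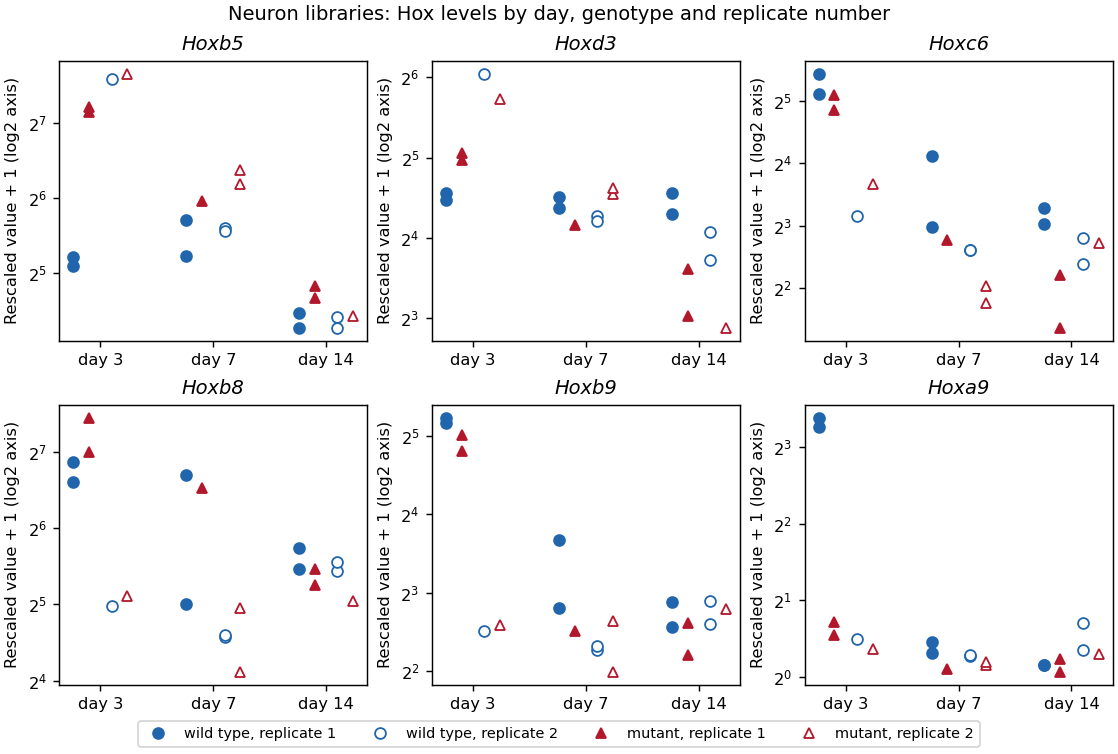
Rescaled value + 1 of 6 Hox members in the 20 neuronal libraries by culture day, on a log2 axis, with the neurons' genotype by colour and symbol, replicate 1 filled and replicate 2 open. The highest day 3 values of Hoxb5 and Hoxd3, 201 and 64.9, belong to replicate 2, and those of Hoxc6, Hoxb8, Hoxb9 and Hoxa9, 42.2, 174, 36.6 and 9.42, to replicate 1.

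The day 3 neuronal libraries differed from each other in how far the Hox set reached towards posterior groups. The 4 replicate 1 libraries had 24 to 28 members at 1 or more, a mean paralogue number of 5.33 to 5.85, and 19.9 to 28.5% of the sum in groups 8 and 9. The 2 replicate 2 libraries, of mutant and wild-type neurons with mutant glia, had 20 members, mean numbers of 4.65 and 4.71, and 4.77 and 5.12%. Hoxb8 was 127 and 174 in mutant and 116 and 95.9 in wild-type replicate 1 libraries, and 33.4 and 30.5 in replicate 2. Hoxb5 went the other way among wild-type neurons, at 36.1 and 32.9 in replicate 1 and 191 in replicate 2. In mutant neurons Hoxb5 was 140 and 148 in replicate 1 and 201 in replicate 2.

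Among the replicate 1 libraries, the 2 of wild-type neurons held the highest values of several posterior members. Hoxa9, a thoracic and lumbar gene, was 9.42 and 8.61 in them, 0.635 and 0.459 in the mutant replicate 1 libraries, and 0.284 and 0.407 in replicate 2. Its highest value in the 16 neuronal libraries outside day 3 replicate 1 was 0.625. Hoxa10 was 3.48 and 3.77 in the same 2 libraries. Hoxa7 was 12.9 and 12.4, Hoxc9 was 3.46 and 3.35, and Hoxc8 was 3.23 and 2.82. The pluripotency markers were high in all 4 replicate 1 libraries, and their part in these values was not tested.

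Without these 4 libraries, 22 members were tested for day 14 against day 3, 7 were lower and 1 was higher. Hoxb5 differed by -3.18, Hoxd3 by -2.34 and Hoxc5 by -2.21, and Hoxa4, Hoxb4, Hoxc4 and Hoxd4 were the others that fell. All 7 belong to groups 3 to 5, but Hoxa3, Hoxb3 and Hoxa5 of these groups were not among them. The share of all genes lower in this refit is not given here, so that the count is a description. In the fit of all libraries 33.5% of all genes were lower. Hoxd8 was the 1 that rose, by 1.26. Hoxa9, Hoxa10, Hoxb1, Hoxb13, Hoxc9 and Hoxd9 no longer passed the filter on low values. Day 3 then held only the replicate 2 libraries of mutant and wild-type neurons, both with mutant glia. These differences rest on them and compare days only for neurons with mutant glia.

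Marker genes of several cell types moved with culture day in neurons. The summed value of 8 neuronal markers was 3200 to 4299 at day 3 and 482 to 957 at day 14, with 8 of 8 lower. That of 7 motor neuron markers was 243 to 519 and 30.3 to 57.8, with 6 lower and 1 higher. Astrocyte markers summed to 79.4 to 202 and 389 to 672, with 6 of 8 higher, and pluripotency markers were lower for 5 of 5, with a day 14 sum of 0.460 to 6.09. The part of these in the Hox values was not tested.

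The cofactor and target lists fell with day as well. Of 9 cofactors 6 were lower at day 14 and 1 higher, with a list median of -1.09, and Pbx3 had means of 67.7 at day 3 and 8.21 at day 14. Meis3 and Meis2 differed by -2.62 and -2.09. Of 9 motor column genes 6 were lower and 2 higher, with a median of -1.30 and with Mnx1 at 132 and 6.93 (-4.00), Pou3f1 at -2.93, and Nkx6-2, a ventral progenitor and oligodendrocyte factor, higher by 2.66. Of 17 retinoic acid genes 8 were lower and 3 higher (median -0.67), where 29.7% of all genes were higher, among them Crabp2 and Cyp26b1, which bind and degrade retinoic acid, at -3.10 and -2.17, and Aldh1a1 at 2.68. Of 18 entries of chromatin genes 11 were lower and none higher (median -0.53), led by the lower of 2 Phc2 entries (-1.59), Cbx7 (-1.53) and Jarid2 (-1.29). Of 7 forebrain and midbrain genes tested 2 were higher and 2 lower (median 0.55), with Lhx2 at 2.14 and En1 and En2 at -1.70 and -1.11, and of 2 Cdx and posterior inducer genes tested Cdx1 was lower, by -0.90.

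No Hox member was called between mutant and wild-type neurons in the fit of all libraries without a replicate block. With a replicate block within day 2 of 28 were called on mutant glia, Hoxb4 higher and Hoxa3 lower, and none on wild-type glia. The values that follow are of the fit without the block. On mutant glia 0 of 28 were called, where 0.135% of all genes were, 20 of 14847, and 4 members had an unadjusted p under 0.05. On wild-type glia 0 of 28 were called, where 0.0269% of all genes were, 4 of 14847, and again 4 members had an unadjusted p under 0.05. Differences ran from -0.55 to 0.61 on mutant glia and from -1.03 to 1.12 on wild-type glia, and the lowest adjusted p was 0.267 and 0.429. On mutant glia 2 were called, 1 higher and 1 lower, when the day 3 replicate 2 library of wild-type neurons was left out. Hoxb4 had the lowest unadjusted p on both partners. Its means on mutant glia were 37.1 in 6 libraries of mutant and 23.9 in 6 of wild-type neurons. The difference was 0.61 (adjusted p = 0.267), and on wild-type glia it was 0.81 (adjusted p = 0.429). On wild-type glia Hoxb5 had means of 85.7 in 3 libraries of mutant and 33.7 in 5 of wild-type neurons, which hold the days in different proportions. It differed by 1.12 (adjusted p = 0.495).

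The signs of the differences are given by cluster as a description of values that did not pass singly without the block. Members of a cluster are neighbours and not replicates, and the share of all genes below 0 is not given here. The median over all genes was -0.01 on mutant and 0.008 on wild-type glia. Of 10 HoxB members 7 were above 0, with a median of 0.12, and 9 of 9 HoxA, 5 of 5 HoxC and 4 of 4 HoxD members were below 0, with medians of -0.41, -0.26 and -0.35. On wild-type glia 6 of 10 HoxB members were above 0, with a median of 0.26, 9 of 9 HoxA and 5 of 5 HoxC members were below 0, and 1 of 4 HoxD members was above. HoxB genes made up 52.3 to 63.8% of the summed Hox value in 9 mutant neuronal libraries and 37.3 to 52.0% in 11 wild-type ones. These ranges did not overlap but nearly met. The libraries hold days and glial partners in different proportions. A share also depends on the levels of the other clusters, and it was not tested. No member differed in its genotype difference between the partners (0 of 28).

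**Figure D4:**
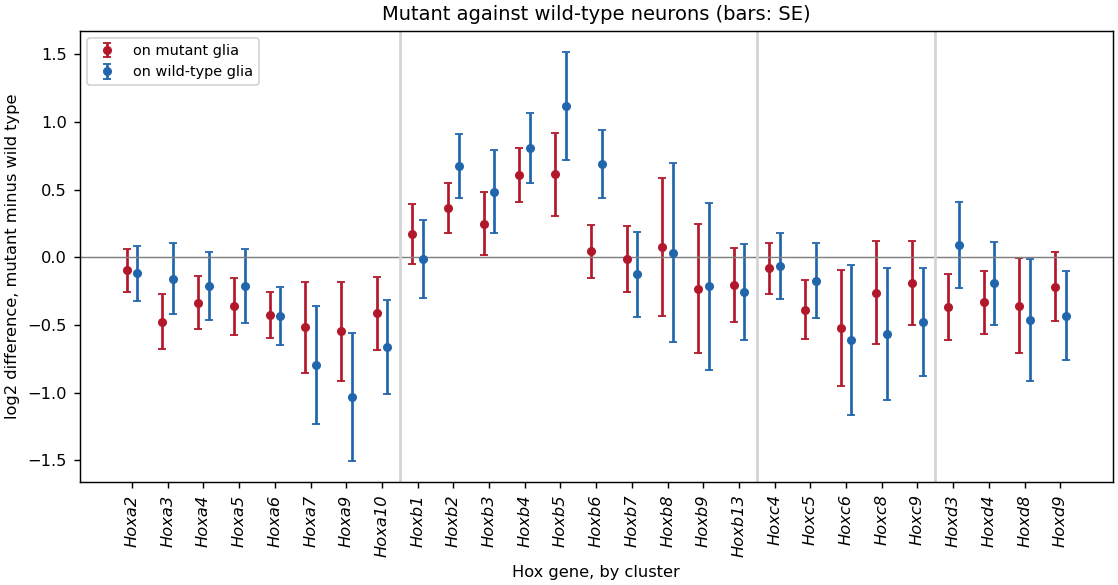
Difference between mutant and wild-type neurons (log2 of value + 1, with the standard error as bars) for the Hox members shown, grouped by cluster, on mutant and on wild-type glia. None passes an adjusted p under 0.05 in this fit of all libraries without a replicate block. With the block Hoxb4 and Hoxa3 pass on mutant glia. As plotted, 7 of 10 HoxB members on mutant glia lie above 0 and every plotted member of the other clusters below it.

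Which glia the neurons grew with gave no called difference. Between wild-type neurons on mutant and on wild-type glia, which share libraries with both genotype comparisons, 0 of 28 members passed, where 0% of all genes did, and none had an unadjusted p under 0.05. Values ran from -0.59 for Hoxb9 to 0.37 for Hoxb5. None of the genes of the cofactor, retinoic acid, Cdx, forebrain, motor column and chromatin lists passed in these 3 comparisons, and the noncoding RNAs of the clusters were not listed in the culture table.

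In glia the Hox values were low but differed by day. Hoxb5 had the highest glial mean, 0.814, and ranged from 0.0583 through 0.272 to 5.04. At day 3 it was 1.26, 0.491 and 0.740 in replicate 1 and 5.04, 1.45, 3.09 and 2.01 in replicate 2, and at day 14 it was 0.0589 to 0.571. The day 3 values of replicate 2 were all above those of replicate 1. Hoxb8 was 0.247 to 1.25 at day 3 and 0 to 0.136 at day 14, without overlap. Of 3 members tested in glia alone 2 were lower at day 14, where 7.83% of all genes were: Hoxb5 by -1.19 (SE 0.22, adjusted p = 0.00317) and Hoxb8 by -0.62 (SE 0.13, adjusted p = 0.00764). Hoxa5, at -0.24, did not pass. Hoxb5 and Hoxb8 reached 1 in glia at day 3 only, so that they met the filter only where they were high and their calls are a description. Glial libraries of the same day and number also varied together, which this comparison of days does not model, so that its p-values may be too small. With 0.1 added in place of 1, the differences of Hoxb5 and Hoxb8 were -2.51 and -2.06. Without the day 3 replicate 1 libraries 1 of 2 members tested was called.

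Neuronal transcripts were also present in the glial libraries, with a neuronal marker sum of 53.6 to 149 and a motor neuron marker sum of 0.716 to 6.04, against 243 to 519 for the latter in day 3 neurons. Of the neuronal markers 1 of 7 and of the motor neuron markers 1 of 2 tested was lower in glia at day 14. Mnx1 and Ret, in the motor column list, were lower at day 14 by -0.92 and -1.17, 2 of 4 genes lower among 8 tested. The part of neuronal RNA in the glial Hox values was not tested. Other lists gave few calls by day: 6 of 14 retinoic acid genes were lower, led by Stra6 (-2.95), Crabp2 (-2.19) and Dhrs3 (-1.57), 2 of 9 cofactors were lower (Pbx3 -0.45, Pknox2 -0.33), and of the chromatin genes Cbx7 was higher (0.40) and Jarid2 lower (-0.38). No forebrain gene passed.

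Hoxd3, the highest glial member of groups 1 to 3, ranged from 0.0116 through 0.155 to 0.972. Hoxc13, the highest of groups 10 to 13, ranged from 0 through 0.0466 to 0.692. Its mean was 0.0490 at day 3 and 0.278 at day 14, and that of Hoxd8 was 0.0445 and 0.403. At day 14 Hoxc13 was listed at 0 in all 4 replicate 1 libraries and was 0.369, 0.549, 0.692 and 0.618 in the 4 replicate 2 libraries. Hoxd8 was 0 to 0.392 in the former and 0.478 to 1.03 in the latter. The replicate 1 libraries held 2.80 to 7.93 M reads on genes, against 18.5 to 19.7 M in replicate 2. Hoxc13 and Hoxd8 were below the filter and were not tested. Between mutant and wild-type glia 0 of 3 members were called, where 0.112% of all genes were, none had an unadjusted p under 0.05, and differences ran from -0.15 to 0.03. This fit had no replicate block, though glial libraries of the same day and number varied together. With the block within day 0 of 3 were called as well. None of the listed cofactors and regulators passed in that comparison.

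In spinal cord 1 Hox member was called between genotypes at the last age and 5 with age, and leaving out single libraries ended each of these calls or, for Hoxd1, the test. The entries below the filter included Hoxa13, Hoxb1, Hoxb13, Hoxc13, Hoxd12, Hoxd13 and the Hoxa3 model of 2085 bases, which reached 1.03 at most. Averaged over ages, 0 of 32 entries were called between mutant and wild-type cord by limma, where 8.65% of all genes were, and none had an unadjusted p under 0.05. Differences ran from -0.19 for Hoxc5 to 0.15 for Hoxa2.

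At 17 weeks Hoxc10, at chr15:102797223-102802145 on the plus strand in mm9, was the 1 of 32 entries called, where 12.2% of all genes were. It was 10.3 in the female and 12.2 in the male mutant, and 25.5 in the female and 17.6 in the male wild-type mouse. The groups did not overlap, and the difference was -0.86 (SE 0.20, adjusted p = 0.0189). Groups did not overlap for 16 of the 32 entries. The share of all genes that did so is not given here, so that this count is a description. At the earlier ages Hoxc10 was 18.6, 17.1, 18.0, 16.7, 12.6 and 13.7 in mutants and 19.2, 16.7, 16.2, 10.8, 10.98 and 15.1 in wild-type mice, in the order of 4, 8 and 12 weeks with the female first. The genotypes overlapped at 4 and 12 weeks, and the mutants were the higher pair at 8 weeks. The change of the genotype difference from 4 to 17 weeks was tested and passed for 0 of 32. Of the 32 entries 28 were below 0 at 17 weeks, with a median of -0.23, against -0.02 over all genes, and 5 had an unadjusted p under 0.05.

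The call rested on the females of 17 weeks, whose deposited values needed the lowest scaling factors, 0.652 to 0.727. Without them Hoxc10 differed by -0.50 (adjusted p = 0.297), without the mutant female by -0.69 (adjusted p = 0.17) and without the wild-type female by -0.62 (adjusted p = 0.117). Without the wild-type male 4 entries were called, all lower in mutants: Hoxc10, Hoxa9, Hoxb5 and Hoxd9. Groups 10 to 13 made up 8.58 to 10.9% of the summed Hox value in the mutants of 17 weeks and 11.3 to 12.9% in the wild-type mice, where the sums were 258 to 262 and 284 to 339.

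Cell type markers moved with genotype at 17 weeks. Motor neuron markers summed to 22.4 to 22.6 in mutants and 31.2 to 40.8 in wild-type mice, with 2 of 5 tested lower, and neuronal markers to 975 to 1000 and 1396 to 1406, with 3 of 8 lower. Astrocyte markers summed to 2981 to 3153 and 1588 to 1683, with 5 of 8 higher, and microglial markers to 497 to 526 and 79.5 to 87.2, with 7 of 8 higher. The part of these in the Hoxc10 difference was not tested. Among the lists, Dhrs3, a retinal reductase, was higher in mutants by 0.66, and the cofactor Pbx3 was lower by -0.36.

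Between 4 and 17 weeks 5 of 32 entries were called, where 18.3% of all genes were, 3 higher and 2 lower, but the count rested on single libraries. It was 0 without the mutant male of 4 weeks, 2 without the mutant female of 17 weeks or either wild-type mouse of 4 weeks, and 3 without the mutant female of 4 weeks or the wild-type male of 17 weeks. Of 14 alternatives, the call was lost in 10 for Hoxc6, in 9 for Hoxb5, in 5 for Hoxd8 and in 5 for Hoxb6, 1 of them with the opposite sign. Hoxd1 was 1.05 and 1.29 in the mutants and 0.565 and 0.624 in the wild-type mice of 4 weeks, and 0.317, 0.115, 0.316 and 0.289 in those of 17 weeks. All 17-week values lay below all 4-week values, and the difference was -0.56 (SE 0.12, adjusted p = 0.00754). With 0.1 added in place of 1 it was -1.43. Hoxd1 reached 1 in the 2 mutants of 4 weeks only, so that it met the filter only where it was high, and without either of them it was not tested. Hoxd8 was 17.4 to 19.2 at 4 weeks and 13.7 to 17.4 at 17 weeks, a difference of -0.25 (adjusted p = 0.0315).

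Hoxb6 was 15.1 to 17.0 at 4 weeks, 18.3 to 25.1 at 8 and 12 weeks and 18.0 to 24.4 at 17 weeks. It differed by 0.32 (adjusted p = 0.0147) without overlap. Hoxb5 was 11.9 to 15.3 and 14.2 to 23.8 at 4 and 17 weeks and differed by 0.37 (adjusted p = 0.0263), and Hoxc6 was 6.54 to 9.50 and 7.38 to 11.8 and differed by 0.38 (adjusted p = 0.0333). Direction depended on scaling for this comparison. On the values as deposited 7 members were lower at 17 weeks (Hoxa9, Hoxa10, Hoxc8, Hoxc10, Hoxd1, Hoxd8 and Hoxd9) and none higher, and Hoxb6, Hoxb5 and Hoxc6 came to -0.03, 0.02 and 0.04 and did not pass (adjusted p = 0.827 for Hoxb6). Hoxd8 came to -0.60.

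**Figure D5:**
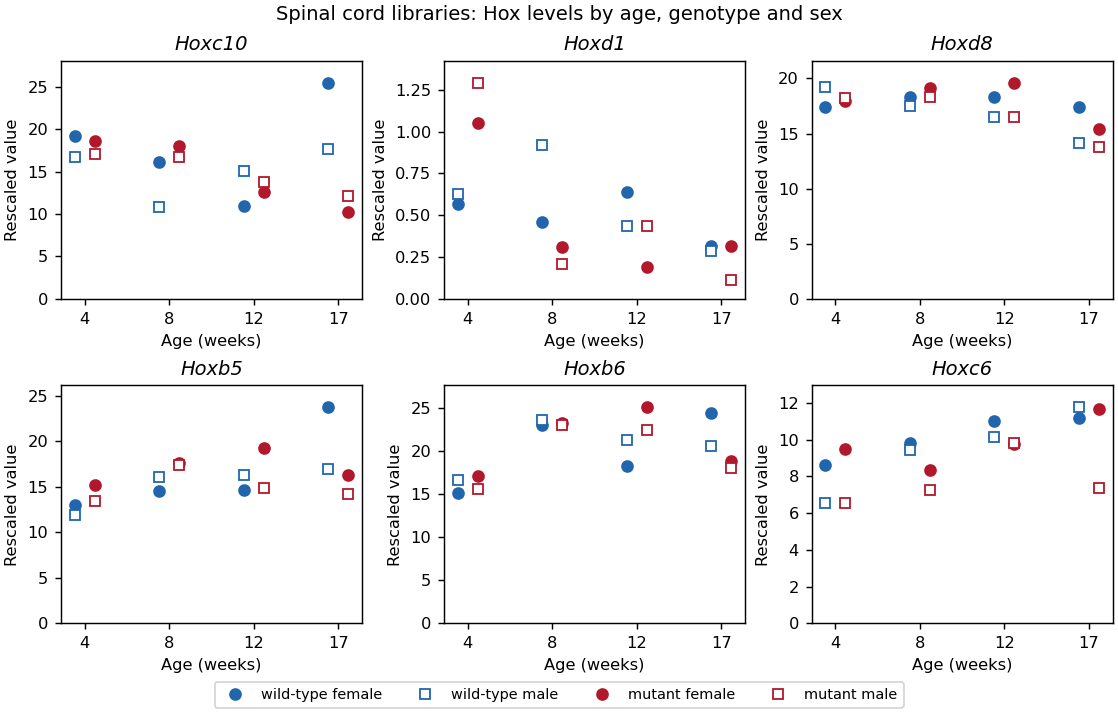
Rescaled value of 6 Hox members in the 16 spinal cord libraries by age, with genotype by colour and sex by symbol. At 17 weeks the mutants lie at 10.3 and 12.2 for Hoxc10 and the wild-type mice at 25.5 and 17.6, and the 17-week values of Hoxd1 lie below its 4-week values.

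Cell type markers moved with age too. Oligodendrocyte markers summed to 7073 to 7692 at 4 weeks and 2899 to 3692 at 17 weeks, with 7 of 8 lower, 7 of 8 microglial markers were higher, and 5 of 8 neuronal and 2 of 5 motor neuron markers were lower. Their part in the Hox changes was not tested. Among the lists, Dhrs3 (0.59) was higher at 17 weeks, as were the cofactor Meis3 (0.29) and Cbx7 (0.45). Ret, Jarid2 and Phc1 were lower, by -0.28, -0.36 and -0.34, as 1 of 8 motor column genes and 2 of the 3 chromatin genes called lower of 16. Of 12 noncoding RNAs of the clusters 3 were tested and none passed, and Hotairm1, which is transcribed from the anterior end of HoxA, had means of 2.72 in mutant and 2.37 in wild-type cord.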

How the data were processed

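RNA-seq libraries of mouse spinal cord (16), cultured glia (23) and cultured neurons (20) were grouped by the labels' genotype, age or day, sex and cell read. Per the labels, RNA came from Trizol and RNeasy column extraction, and libraries came from a standard Illumina or a Nextera kit, with no statement of which for each. The submitters' processing notes name Bowtie and mm9. The counter was not given in the sources used here. The authors deposited RPKM values for the cultures. For 99.82% of 22784 entries above 0 they came out as whole reads, and 41 entries were not recovered. The cord values, deposited in a unit that is not stated, behaved as reads per length and library. Some genes had reads taken off. In 898 entries, none of them Hox, values below 0 resulted and were set to 0. Of the culture entries, 127 without values were left out. No column lacked a sample.

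Values were rescaled by median-of-ratios factors within each table (14535 culture and 17328 cord entries), taken as log2(value + 1), filtered to genes that reached 1 in 2 or more libraries of a fit, and tested with limma 3.58.1 in R 4.3.3 (lmFit, eBayes with trend), with Benjamini-Hochberg adjustment over all genes and calls at an adjusted p under 0.05. Fold changes are thus on the log2(value + 1) scale. Models were pairing-by-day means for neurons, glia and both together, and genotype-by-age means with sex for cord. A lone library of a group was taken to have the spread of the replicated groups. The fits were tested on simulated data. RPKM is no count, so no count model was the main test, and voom on the recovered reads was an alternative chosen after seeing the data.

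Equal replicate numbers within a day paired the glial libraries: residual correlations passed 0.1 in 15 of 15 pairs (median 0.708). In cord the number is the sex. Members and lists were chosen with earlier results of these data known. Named with values were the highest member of each paralogue class in cord, neurons and glia, up to 5 called members per comparison with the largest change, and up to 3 called genes per list or, with none called, the highest. Other members named were chosen after their values were seen, and some genes are not reported here by name. Python 3.11.15, pandas 2.3.3, numpy 2.4.6 and matplotlib 3.10.9 were used. Promoter sequences and their positions are from RefSeq (GRCm38.p6), and gene positions are those deposited (mm9).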

Additional observations from a re-analysis of the deposited data

Results flagged for a closer look

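A library that stood far from the rest of its group was found in 7 of 125 combinations of a member and a group of 4 to 10 libraries, where chance gives about 5% of such combinations. In spinal cord Hoxb4 was 2.87 in the mutant female of 17 weeks, with the next of the 8 mutants at 2.22. The Hoxa3 model of 6390 bases was 1.46 in the wild-type male of 17 weeks, with the next of 8 wild-type mice at 1.24. Hoxb5 was 23.8 in the wild-type female of 17 weeks, with the next at 17.0. The other 4 were in 1 library, wild-type neurons with wild-type glia of day 7, replicate 1. There Hoxb7 was 34.4 (next of the day 7 neurons 21.4), Hoxb9 was 11.8 (next 6.01), Hoxc5 was 30.3 (next 19.0) and Hoxc6 was 16.3 (next 6.91).

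The difference between neurons and glia changed from day 3 to day 14 for 18 of 28 members by an interaction test in limma. Of all genes, 53.7% passed this test in either direction. In log2 units the difference narrowed for Hoxa4 by -0.63, Hoxa7 by -0.97, Hoxa9 by -1.29 and Hoxa10 by -0.87. In HoxB it narrowed for Hoxb1 by -0.85, Hoxb4 by -0.63, Hoxb9 by -1.59 and Hoxb13 by -0.92. In HoxC it narrowed for Hoxc4 by -0.64, Hoxc5 by -1.29, Hoxc6 by -1.90, Hoxc8 by -1.11 and Hoxc9 by -1.01. In HoxD it narrowed for Hoxd3 by -0.88, Hoxd4 by -0.78 and Hoxd9 by -0.78. It widened for Hoxa2 by 0.44 and Hoxb6 by 0.69. Hoxa9, Hoxa10, Hoxb1, Hoxb13, Hoxc9 and Hoxd9 met the filter only through neurons of day 3 replicate 1. They were high there, so that their narrowing is a description. Without the day 3 replicate 1 libraries 7 of 22 passed, all narrower, and neither Hoxa2 nor Hoxb6 did. The share of all genes that passed in this refit is not given here.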

How the results depend on the processing

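Counts of members called higher in neurons than in glia lay between 21 of 22 (without the day 3 replicate 1 libraries) and 33 of 39 (no filter) over days, 20 and 31 at day 3, and 21 and 22 at day 14. With each library left out they were 25 to 28, 25 to 28 and 21. For neurons of day 14 against day 3, 8 of 22 were called without the day 3 replicate 1 libraries (7 lower, 1 higher, and Hoxb9 turned to 0.0668) and 12 of 32 with voom, and 12 to 20 with each library left out, 12 being without the wild-type neurons with wild-type glia of day 3. For glia of day 14 against day 3 there were 11 of 38 without a filter, 10 of 18 with voom, 1 of 2 without the day 3 replicate 1 libraries and 1 to 2 with each library left out. In cord at 17 weeks 0 were called without the 17-week females and 0 to 4 with each library left out, 0 being without either 17-week female. For 17 against 4 weeks there were 3 without the 17-week females, 7 on the values as deposited, where Hoxb6 turned to -0.0336, and 0 to 5 with each library left out, 0 being without the mutant male of 4 weeks. Mutant against wild-type neurons on wild-type glia, the glial partner, mutant against wild-type glia and mutant against wild-type cord gave 0 in every alternative run. Hoxd1 kept its call in 12 alternatives and was below the filter without either mutant of 4 weeks.

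The replicate block within day, whose numbers pair the neurons in 6 of 7 same-day pairs (lowest residual correlation 0.074), gave 2 calls for mutant against wild-type neurons on mutant glia: Hoxb4 higher at 0.61 (limma, adjusted p = 0.0374) and Hoxa3 lower at -0.48 (adjusted p = 0.0396). With each library left out this count was 0 to 2, 2 being without the day 3 replicate 2 library of wild-type neurons. The block left the counts against glia at 28, 28 and 21 and that of mutant against wild-type glia at 0. It was not run for the comparisons of days, since the number is nested in day. Leaving sex out of the cord model left the counts at 0, 1 and 5.

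Glial Hox values rest on few reads, and members below a value of 1 were not tested there. Groups hold 1 or 2 libraries, which limits the calls.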
